A study of Saccharomyces cerevisiae with 2 samples.

Results

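The cytosolic ribosomal protein genes of budding yeast encode the proteins of the large and the small subunit of the ribosome that works in the cytoplasm. They were taken from the R64 annotation as the nuclear protein-coding genes whose symbol is RPL or RPS followed by a digit, together with RPP0, RPP1A, RPP1B, RPP2A and RPP2B. The rule gave 137 of the 6002 nuclear protein-coding genes, 81 for the large and 56 for the small subunit, on 15 of the 16 nuclear chromosomes. Of these, 118 form 59 paralogue pairs named A and B, and 19 have no partner of that kind. In NOMe-Seq, a cytosine methyltransferase is added to nuclei, methylates its target wherever the DNA is accessible, and leaves the DNA held by nucleosomes or other proteins mostly unmethylated. Spheroplasts of the S288C strain grown in YPD were fixed with formaldehyde and permeabilized, and the nuclei were treated for 60 min at a single condition with CCMT, which is M.CviQIX, or with GCMT, which is M.CviPI. CCMT methylates the first C of CC and GCMT the C of GC, so the libraries read different cytosines of the same promoter. Each enzyme had 1 library and no library of untreated nuclei was analysed here, so no replicate error and no p-value can be given.

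Yeast devotes a large part of its transcription by RNA polymerase II to these genes in rich medium, and all of them are raised and lowered together with growth. Rap1 binds upstream of most of them and helps to keep nucleosomes away, and Fhl1, Ifh1, Sfp1 and Hmo1 act at the same promoters, whereas Abf1 or Tbf1 takes the place of Rap1 at some. Most of the paralogue pairs descend from an ancient duplication of the whole genome, and many ribosomal protein genes carry an intron near the start codon, which is otherwise rare in yeast. In the annotation, 89 of the 137 genes had an intron in the coding sequence (65.0%), against 3.10% of the other genes.

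The methylation level of a cytosine is the percentage of its reads that were methylated. Over the nuclear chromosomes the CCMT library listed 900211 cytosines with a median of 31 reads, and the GCMT library 839016 with a median of 13, each with at least 5 reads. The mean level over the genome was 9.71% with CCMT and 10.09% with GCMT. A level of a region is the mean over its listed cytosines, at least 3 of them, with positions counted from the first base of the start codon at 0. No position of the ribosomal protein promoters lay in a repeated 75-base word, and 99.5% of their CC and 99.3% of their GC cytosines were listed. They had 29.9 reads per cytosine with CCMT and 14.9 with GCMT, close to the 28.7 and 13.5 of the other promoters. In the gene bodies, 8 genes were repeated over more than 50% of the region (among them both copies of RPL4, RPL1 and RPL11), so body levels of these copies cannot be fully told apart.

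The promoters of ribosomal protein genes were more accessible than those of other genes with both enzymes, and the accessible stretch reached farther upstream. From -250 to -100, the median level over the genes was 29.1% with CCMT (95% order-statistic interval of the median, 26.8% to 30.1%, n = 134 genes with a value) and 31.3% with GCMT (29.1% to 32.6%, n = 135). The other genes had medians of 17.8% (n = 5677) and 19.0% (n = 5473). The medians differed by 11.3 points with CCMT and by 12.3 with GCMT. The quartiles of the ribosomal protein genes were 22.4% and 32.1% with CCMT, against 11.7% and 24.5% for the other genes, so the groups overlapped. Because 27.7% of the ribosomal protein genes but 56.8% of the other genes had another coding sequence from -500 to -1, the comparison was repeated over genes with none. There the difference was 12.3 points (CCMT) and 13.1 points (GCMT).

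Between -500 and -250, the contrast was of a like size. The ribosomal protein genes had a median of 21.1% with CCMT and 23.7% with GCMT, against 10.7% with both enzymes in the other genes, or 1.97 and 2.21 times the level. Over genes with no other coding sequence upstream, the difference here was 7.06 points (CCMT) and 10.7 points (GCMT). The differences stayed near 0 close to the start codon and inside the gene. From -99 to -1 the medians were 11.7% and 11.3%, against 11.04% and 11.22% in the other genes. From 100 to 500 in the gene the medians were 7.56% with CCMT and 7.82% with GCMT, against 8.02% and 7.85%. Farther out, between -800 and -500, the medians were 10.1% and 10.6%, against 8.85% and 8.91%.

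In the averaged profile, the methylation of ribosomal protein genes formed a broad plateau in place of the narrower peak of the other genes. The maximum was at -198 with CCMT, at a level of 30.6%, and at -224 with GCMT, at 34.3%. In the other genes it was at -148 and 21.4% with CCMT and at -136 and 22.7% with GCMT. The stretch above the midpoint between the maximum and the gene body spanned 321 bp with CCMT and 320 bp with GCMT, against 207 bp and 224 bp in the other genes. Nuclear genes for mitochondrial ribosomal proteins were taken by symbol, as MRPL or MRPS, or as RSM or MRP followed by a digit. This gave 67 genes, and any gene of that ribosome with another name is outside the set. The 67 genes had a peak of nearly the same height that was narrower and nearer to the gene. Their maximum was 28.9% at -116 with CCMT and 32.7% at -108 with GCMT, and their span was 123 bp and 105 bp. Their median promoter level was 20.8% with CCMT and 21.2% with GCMT, and between -500 and -250 it was 8.94% and 8.74%.

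**Figure D1:**
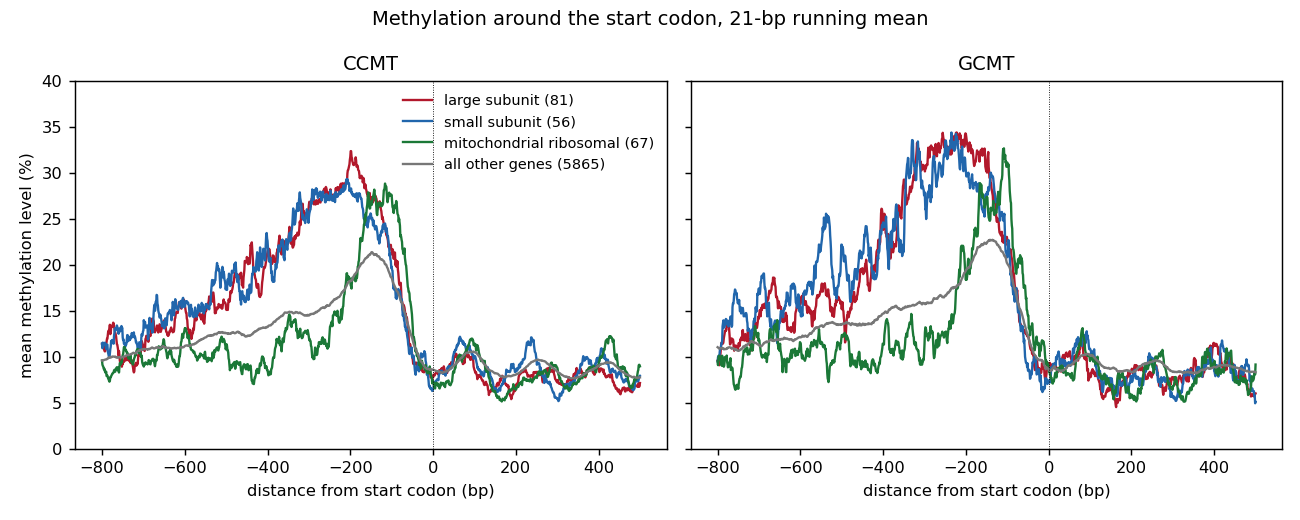
Mean methylation level (%) by distance from the start codon (bp) in the CCMT and the GCMT library, as a 21-bp running mean, for large subunit (81 genes), small subunit (56), mitochondrial ribosomal (67) and all other genes (5865). The curves of the large and the small subunit genes lie above that of the other genes between -450 and -100, with maxima of 32.4% and 29.3% (CCMT) and 34.4% for both (GCMT), and run close to it farther out and next to the start codon.

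Counted gene by gene, the promoter level was at least 2 times the gene body level in 112 of 134 ribosomal protein genes with CCMT (83.6%), against 55.6% of all genes tested. With GCMT it was so in 114 of 134 (85.1%), against 60.1%, and in both libraries in 105 of 131 (80.2%), against 44.6%. A promoter level in the top 10% of all genes was 30.7% or more with CCMT and 34.2% or more with GCMT. With CCMT, 52 of 134 ribosomal protein genes reached it (38.8%, against the 10% that the rule fixes for all genes), and with GCMT 42 of 135 (31.1%, against 10%). In both libraries 22 of 132 did (16.7%), against 3.41% of all genes. The highest promoter levels of the genome were those of other genes (44.2% against 66.5% with CCMT, 54.5% against 64.7% with GCMT).

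By counts of open windows, the accessible DNA of these genes was also wider than that of other genes. Another coding sequence lay from -500 to -1 in 56.8% of the other genes and in 27.7% of these. Neither the counts below nor the profile spans above were recomputed over genes with none, so the part of that difference in the width is not known. In windows of 50 bp from -800 to -1 with at least 2 cytosines, those with a level of at least 20% were called open. The ribosomal protein genes had a mean of 5.53 open windows with CCMT and 5.58 with GCMT, against 2.76 and 3.07 in the other genes. A run of open windows of at least 200 bp in both libraries was found in 67 of 137 ribosomal protein genes (48.9%), against 11% of all genes and 2 of the 67 mitochondrial ribosomal protein genes. The longest run was that of RPL15B, a protein of the large subunit, with 750 bp in CCMT and 550 bp in GCMT. The strongest window, chosen by the mean of both libraries, was above 30% in both libraries in 82 of 137 genes (59.9%), against 30.1% of all genes. No open window was found with CCMT upstream of RPP1A and RPL4B, and none with GCMT upstream of RPL4A. Windows with fewer than 2 cytosines could not be called open, so these genes were not shown to be closed. The promoter level of RPL4B with CCMT was 30.7%, over 3 cytosines. That of RPP1A with CCMT was 19.4% and that of RPL4A with GCMT 12.1%, each over 4. The share of genes with a higher level between -500 and -250 than from -250 to -100 in both libraries was close to the background, 31 of 131 (23.7%) against 21.8%.

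**Figure D2:**
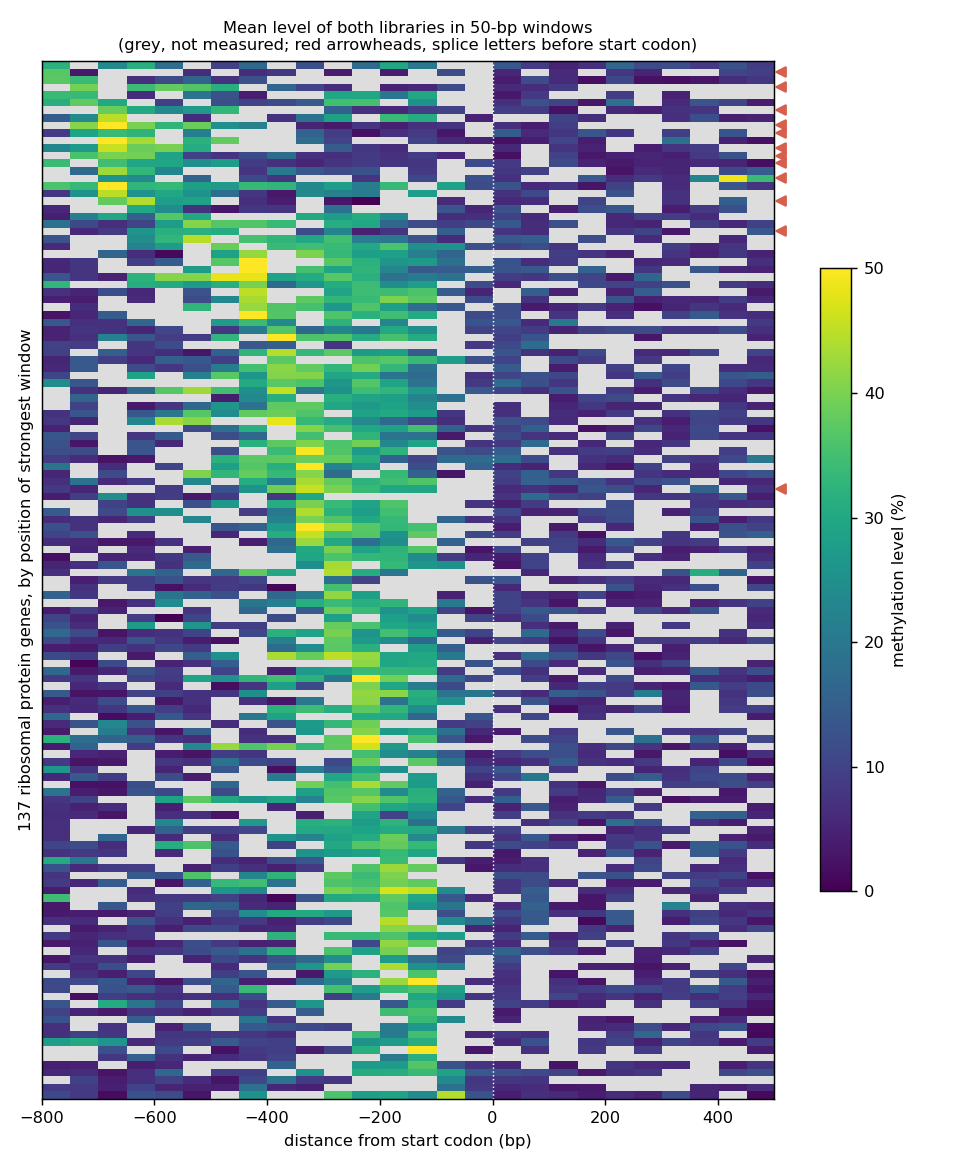
Mean of the CCMT and GCMT levels (%) in 50-bp windows from -800 to 500 of the start codon, with 1 row for each of the 137 genes, ordered by the position of the strongest window. Median levels over the genes were from 25.3% to 28.5% (CCMT) and from 27.3% to 34.6% (GCMT) in the windows from -350 to -100 and at most 10.4% in those within the gene, and a group at the top, where red arrowheads mark the 12 genes with splice letters before the start codon, is light farther out and dark next to the gene (11 of these 12 have the strongest window at or before -500).

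The large and the small subunit genes had nearly the same levels upstream. The median promoter level of the large subunit genes was 29.3% with CCMT and 31.4% with GCMT, and that of the small subunit genes 28.8% and 31.1%. The differences, 0.50 points and 0.26 points, were within the intervals of the medians (26.5% to 31.2% and 25.2% to 30.1% with CCMT). Between -500 and -250 the large subunit genes were higher by 2.44 points with CCMT and by 0.28 points with GCMT. In the gene body they were lower in both libraries, at 7.05% against 8.13% with CCMT and at 7.54% against 8.10% with GCMT. The intervals of these medians overlapped, at 6.3% to 7.9% and 7.5% to 8.6% with CCMT and at 6.8% to 8.3% and 7.4% to 8.6% with GCMT. A promoter level of at least 2 times the body level in both libraries was found in 64 of 76 large subunit genes and in 41 of 55 small subunit genes. A long open run in both was found in 37 of 81 and in 30 of 56.

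Ranked by promoter level in each library and ordered by the lower rank, the top 12 were RPS1A, RPL27A, RPL14A, RPL22B, RPS20, RPL13A, RPL39, RPS18B, RPL14B, RPS19B, RPL34A and RPS13. They came from both subunits, with 7 genes for the large and 5 for the small, close to the 81 and 56 of all 137. Of the 12, 10 had an intron in the coding sequence, against 89 of the 137 (65.0%), and a count over 12 genes is small. Their levels ran from 32.9% to 44.2% with CCMT and from 36.3% to 54.3% with GCMT. RPS1A, whose protein sits at the platform of the small subunit, had 37.96% with CCMT (13 cytosines, pooled reads 37.7%, exact binomial interval 32.2% to 43.3%) and 44.3% with GCMT (12 cytosines, exact binomial interval of pooled reads, 32.1% to 48.3%). These intervals cover the counting of reads only. RPL14A had the highest CCMT level of the group, 44.2% over 13 cytosines, and 40.5% with GCMT over 28. RPL39, a small protein that lines the exit tunnel of the large subunit, had 33.6% and 40.3%. All 12 had body levels of at most 16.01% in both libraries, that of RPS20 with GCMT being the highest.

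The upstream DNA of RPS1A (chrXII:1019009-1019308, minus strand, R64) and of RPL14A (chrXI:431476-431775, plus strand) is shown as 300 bases each, because the stretch of RPS1A was at 33.1% with CCMT and 31.0% with GCMT and that of RPL14A at 37.0% and 41.1%. Capitals mark the letters ACCCNNACA on either strand, the core of the sequence bound by Rap1.
RPS1A: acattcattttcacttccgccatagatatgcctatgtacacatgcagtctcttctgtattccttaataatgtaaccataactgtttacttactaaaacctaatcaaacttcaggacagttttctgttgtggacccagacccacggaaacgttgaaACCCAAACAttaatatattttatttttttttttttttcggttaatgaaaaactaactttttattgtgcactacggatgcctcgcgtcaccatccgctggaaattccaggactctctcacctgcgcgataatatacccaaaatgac
RPL14A: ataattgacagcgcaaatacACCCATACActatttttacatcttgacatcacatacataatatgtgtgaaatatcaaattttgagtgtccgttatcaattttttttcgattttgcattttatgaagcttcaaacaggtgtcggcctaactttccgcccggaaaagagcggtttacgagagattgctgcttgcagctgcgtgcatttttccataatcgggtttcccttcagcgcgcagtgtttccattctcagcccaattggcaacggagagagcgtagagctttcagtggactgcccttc

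**Figure D3:**
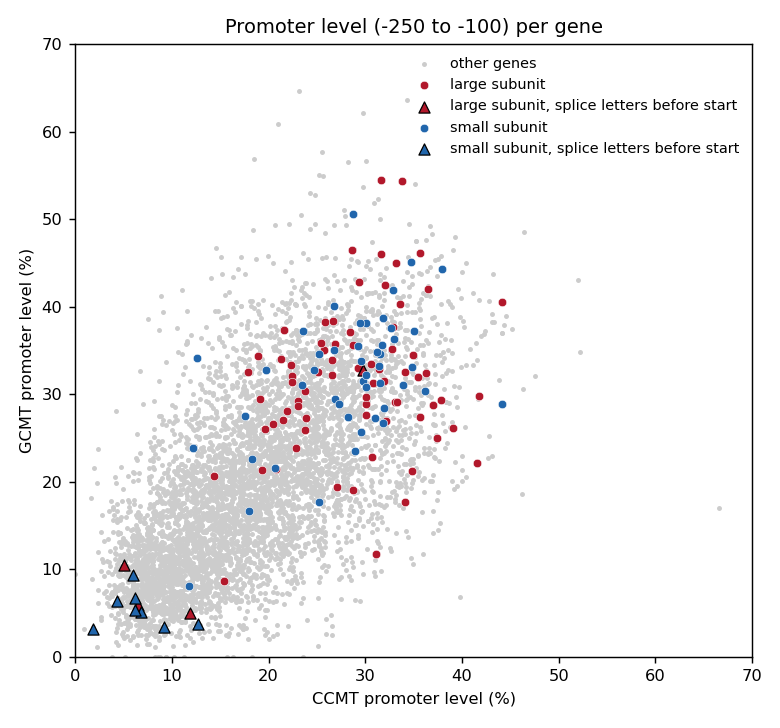
Promoter level from -250 to -100 (%) with CCMT (horizontal axis) and GCMT (vertical axis), with a grey dot for each other gene, a red point for each large subunit gene and a blue point for each small subunit gene. Most ribosomal protein genes lie in the upper right part of the cloud around 29.1% and 31.3%, whereas 11 of the 12 genes drawn as triangles, which have splice letters before the start codon, lie below 13% in both libraries.

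Among the 8 genes with the lowest promoter levels were RPL32, RPS26B, RPS25A, RPS25B, RPL24A and RPS29A. Their levels were near those of gene bodies. RPL32 was at 6.47% with CCMT (pooled reads 6.79%, exact binomial interval 4.30% to 10.1%) and at 5.91% with GCMT (6.29%, 3.06% to 11.3%). RPL24A, whose protein forms a bridge between the subunits, was at 11.9% and 4.95%. RPS29A was at 5.94% and 9.37%, and RPS25A at 9.15% and 3.40%. Farther out the levels were high. Between -800 and -500, RPL32 was at 29.4% with CCMT and 31.6% with GCMT, RPL24A at 33.8% and 28.5%, and RPS26B at 25.5% and 28.8%. Genes with a promoter level below the gene body level in both libraries included RPS26B, RPS29A, RPS29B and RPS22B. The body of RPS29A, at 19.8% with both enzymes, is that of a coding sequence shorter than the region, and it includes DNA beyond the stop codon.

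After these low levels had been seen, the DNA before the start codon was searched for the letters of the yeast 5' splice site (GTATGT, between -700 and the next letters) followed at least 60 bp later by those of the branch point (TACTAAC, from -100 to -1), on the strand of the gene. An intron may lie in the leader of a transcript, before the start codon, and RNA polymerase then begins farther away than usual. The annotation used here gives neither transcription starts nor leaders, so a match is a description of the letters. They were found in 12 of the 137 ribosomal protein genes (8.76%), against 22 of all 6002 genes (0.367%), among them RPL32, RPS29A, RPS29B, RPS26A, RPS26B, RPL24A, RPL24B, RPS25A, RPS22B and RPL17A. The copies of RPS26, RPL24 and RPS29 both held them. Of the 132 ribosomal protein genes measured in both libraries, 12 lay below 13% in both, a limit set after the values were seen, and 11 of these had the letters. The remaining one was RPS25B, at 11.8% and 8.12%.

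The median promoter level of the 12 genes with the letters was 6.33% with CCMT and 5.61% with GCMT, against 29.6% (n = 122) and 32.0% (n = 123) in the ribosomal protein genes without them. Between -800 and -500 the order was reversed, with medians of 28.4% and 28.7%, against 9.79% and 10.01%. The 5' splice site letters lay at a median of -388.5, and the strongest window lay at or before -500 in 11 of the 12, against 14 of 125 without the letters. RPL17A was the exception. Its promoter was at 29.8% with CCMT and 32.8% with GCMT, its strongest window began at -350, and its first letters lay at -607. The other 11 ranged from 1.83% to 12.8% with CCMT and from 3.12% to 10.5% with GCMT in the promoter region. RPS29B, for example, was at 1.83% and 3.12% in the promoter region, on 108 reads with CCMT and 211 with GCMT, and at 27.4% and 28.0% between -800 and -500. RPS22B had 6.18% and 5.31%, against 20.3% and 19.3%. The 10 other genes of the genome with the letters had median promoter levels of 11.2% (CCMT) and 13.02% (GCMT), against 17.8% and 19.0% in the other genes without them. Their upper quartiles were 22.5% and 17.0%. Between -800 and -500 their medians were 14.8% and 13.8%, so the reversal was much weaker there than in the ribosomal protein genes.

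The 80 bases before the start codon of 5 of these genes are shown from the R64 reference, to show where the letters stand. Each of these stretches held only 1 to 5 cytosines per library. Their levels ran from 1.67% (RPL24A, GCMT, 4 cytosines) to 18.2% (RPL24B, GCMT, 2 cytosines and 26 reads). Capitals mark TACTAAC and the ATG.
RPL24A: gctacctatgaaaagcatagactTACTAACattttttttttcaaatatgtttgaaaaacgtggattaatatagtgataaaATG
RPL24B: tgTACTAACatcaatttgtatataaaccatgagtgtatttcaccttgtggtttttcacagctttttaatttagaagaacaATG
RPS26A: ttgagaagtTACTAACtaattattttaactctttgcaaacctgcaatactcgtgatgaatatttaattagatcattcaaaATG
RPS29B: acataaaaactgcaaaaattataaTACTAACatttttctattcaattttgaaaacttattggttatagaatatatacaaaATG
RPL32: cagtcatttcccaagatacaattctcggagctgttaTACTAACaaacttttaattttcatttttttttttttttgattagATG
The strongest window of RPL24A began at -700, beyond its 5' splice site letters at -463. The DNA there also lies upstream of RPL30, the divergent neighbour of RPL24A at 1156 bp, so its level cannot be assigned to RPL24A alone. The 200 bases from -800 on (chrVII:438535-438734, minus strand) were at 35.3% with CCMT over 27 cytosines and at 41.6% with GCMT over 15, and are shown without capitals since they hold no match to ACCCNNACA.
RPL24A: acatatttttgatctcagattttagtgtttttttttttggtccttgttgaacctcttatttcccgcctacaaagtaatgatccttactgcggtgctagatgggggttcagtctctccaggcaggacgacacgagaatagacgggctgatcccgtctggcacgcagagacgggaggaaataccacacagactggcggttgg

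Ribosomal protein genes with an intron in the coding sequence had higher upstream levels than those without. Between -500 and -250, the medians were 23.0% against 16.8% with CCMT and 27.2% against 15.6% with GCMT (89 and 48 genes, 88 with a GCMT value). In the promoter region they were 29.5% against 26.4% and 32.5% against 26.6%. Farther out, between -800 and -500, the order was reversed, at 9.48% against 12.9% and 9.52% against 14.2%. The genes without an intron in the coding sequence include 10 of the 12 with splice letters before the start codon. Without those 12, the difference between -500 and -250 was 5.52 (CCMT) and 10.9 points (GCMT), and with them it was 6.23 and 11.6 points. The differences in the promoter region and between -800 and -500 were not recomputed without them. Those 12 had medians of 6.33% (CCMT) and 5.61% (GCMT) in the promoter region, and of 28.4% and 28.7% between -800 and -500. These 2 differences can therefore not be read as traits of the intron alone.

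Paralogue copies encode nearly the same protein, and this comparison asks whether their upstream DNA was equally accessible. Of the 59 pairs, 55 had a promoter level for both copies in both libraries. The median difference between copies, without its sign, was 6.55 points with CCMT (quartiles 2.96 and 10.7) and 6.08 points with GCMT (2.85 and 11.03). Over the other pairs of ribosomal protein genes this median was larger with both enzymes. By this measure the copies were therefore not farther apart than other ribosomal protein genes. In 29 of the 55 pairs (52.7%) the same copy was higher in both libraries, against 73.6% of all pairs of nuclear genes and 65.2% of the other pairs of ribosomal protein genes. In 6 of 55 (10.9%) the copies were at least 10 points apart with the same sign in both, against 25.6% of all pairs of genes and 22.6% of the other pairs of ribosomal protein genes. The shortfall in equal signs was smaller over a wider region. From -500 to -100 the same copy was higher in 42 of 59 pairs (71.2%), against 76.1% of all pairs of genes and 78.3% of the other pairs of ribosomal protein genes, and 6 of 59 (10.2%) were at least 10 points apart, against 17.1% and 24.3%. A gene enters many of the pairs behind these shares, so they are a description.

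The pairs most different in both libraries, among those with at least 5 cytosines per promoter, were RPL8, RPS28, RPS7, RPL2, RPL16 and RPS0. In each of the 6 the B copy was higher, whereas over all 55 pairs the A copy was higher in 28 with CCMT and in 26 with GCMT. RPL8A was at 17.8% with CCMT and 32.6% with GCMT, and RPL8B at 31.6% and 54.5%. The RPL8 copies encode a protein of the large subunit that takes part in its assembly. Their pooled intervals overlapped with CCMT (14.9% to 27.6% and 24.9% to 39.3%) and did not with GCMT (24.3% to 39.6% and 42.7% to 66.5%). RPS7A was at 12.2% and 23.9%, and RPS7B at 31.2% and 34.8%. RPL2A, which encodes a protein next to the peptidyl transferase centre, was at 14.3% and 20.6%, and RPL2B at 31.9% and 31.5%. RPS28A was at 25.2% and 17.7%, and RPS28B at 36.2% and 30.4%. RPL16A was at 21.9% and 28.1%, against 32.1% and 42.4% in RPL16B. RPS0A was at 17.98% and 16.6%, against 26.8% and 34.99% in RPS0B. With fewer than 5 GC cytosines in RPS22B, the RPS22 pair was left out of this order, although its copies were the farthest apart, at 31.9% and 28.4% in RPS22A against 6.18% and 5.31%.

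The promoters of RPL8A (chrVIII:36125-36275, minus strand) and RPL8B (chrXII:48729-48879, minus strand) are printed from -250 to -100 to show where the signal came from. Capitals mark each cytosine of CC or GC at 30% or more in its library, written as G where it is on the other strand. The marked ones in RPL8A were 1 of 7 CC cytosines and 5 of 8 GC cytosines, and in RPL8B 4 of 8 and 5 of 6.
RPL8A: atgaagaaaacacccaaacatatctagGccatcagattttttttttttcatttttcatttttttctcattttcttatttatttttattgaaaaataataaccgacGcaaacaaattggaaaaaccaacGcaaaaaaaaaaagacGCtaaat
RPL8B: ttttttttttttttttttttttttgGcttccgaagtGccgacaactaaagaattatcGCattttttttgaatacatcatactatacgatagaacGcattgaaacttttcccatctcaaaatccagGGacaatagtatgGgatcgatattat

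The 3 most alike pairs included RPL19 and RPS23. RPL19A and RPL19B were both at 22.4% with CCMT and at 33.3% and 32.1% with GCMT. RPS23A was at 29.6% and 33.8%, and RPS23B at 29.3% and 35.6%, and their proteins lie in the decoding centre of the small subunit.

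Farther upstream, the copies differed more, and the libraries ranked them more alike. The larger difference was not particular to the copies. The median difference without its sign also rose in the other pairs of ribosomal protein genes, and it stayed above that of the copies with both enzymes. Between -500 and -250 the same copy was higher in both libraries in 43 of 58 pairs (74.1%), close to the 76.4% of all pairs of genes and the 78.1% of the other pairs of ribosomal protein genes. At least 10 points apart were 13 pairs (22.4%), 6 with A and 7 with B higher, against 24.5% of all pairs and 34.4% of the other ribosomal protein pairs. Across the 58 pairs, Pearson's r of the differences between the libraries was 0.75 and Spearman's rho 0.75, against 0.31 and 0.23 across 55 pairs in the promoter region. The points share their libraries, so these are descriptions. RPS1A was at 20.6% with CCMT and 5.68% with GCMT in this stretch, and RPS1B at 42.0% and 31.5%, whereas in the promoter region RPS1A was higher by 6.55 and 11.1 points. RPS27A was at 11.04% and 10.6%, against 34.4% and 40.3% in RPS27B. RPL14A was at 30.0% and 34.9%, against 7.96% and 12.2% in RPL14B.

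**Figure D4:**
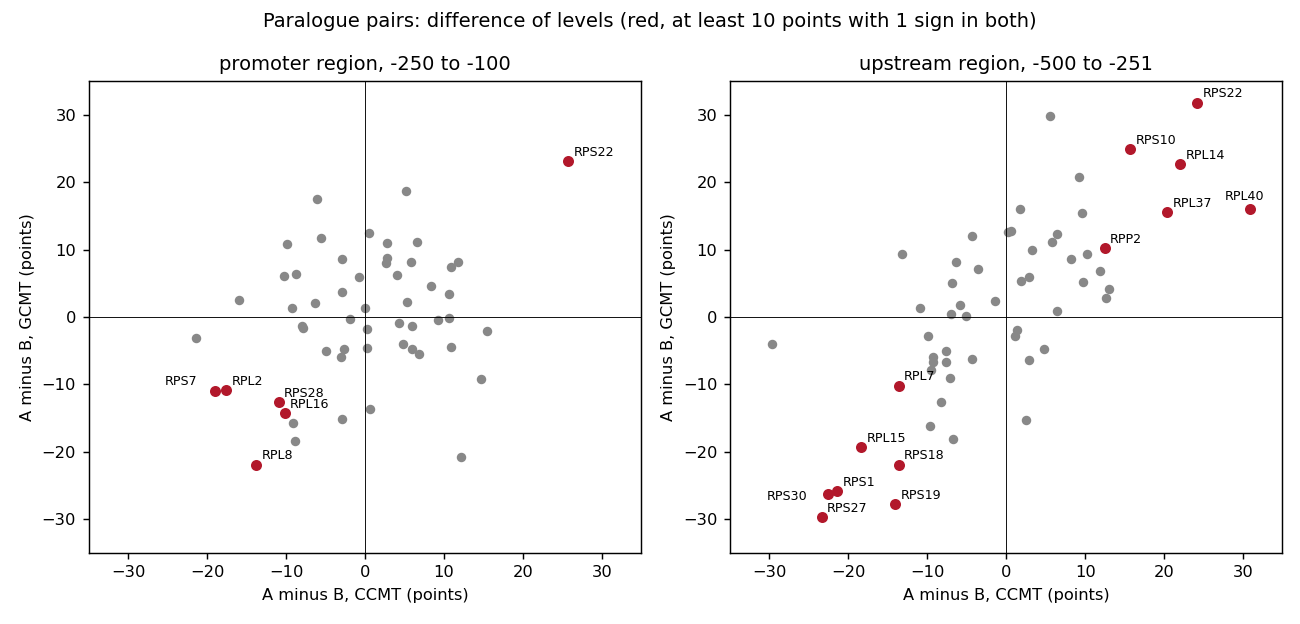
Difference between the copies of each pair, A minus B, in points of methylation level with CCMT (horizontal axis) and GCMT (vertical axis), for the promoter region and for the stretch between -500 and -250. Points are scattered around the centre in the promoter region (r = 0.31) and lie along the diagonal farther upstream (r = 0.75), and red points with names are the 6 and 13 pairs that were at least 10 points apart with the same sign in both.

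The stalk of the large subunit recruits the translation factors, and its genes are RPP0, RPP1A, RPP1B, RPP2A and RPP2B. RPP0 had too few CC cytosines for a CCMT level and was at 34.8% with GCMT. RPP1A was low for this group, at 19.4% with CCMT and 21.4% with GCMT, and RPP1B was at 28.5% and 37.1%. RPP2A was at 25.1% and 32.5%. RPP2B was at 30.7% with CCMT and had too few GC cytosines for a GCMT level. RPL40A, RPL40B and RPS31 encode ribosomal proteins fused to ubiquitin. RPL40A was at 25.8% and 38.2%, RPL40B at 35.7% and 27.4%, and RPS31 at 19.8% and 32.7%. In the stretch between -500 and -250, RPL40A was at 43.1% and 29.9%, against 12.2% and 13.8% in RPL40B. These genes fell within the range of the other ribosomal protein genes in both regions.

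In 5 places, 2 ribosomal protein genes are divergent neighbours and share the DNA between their start codons: RPS16B with RPL13A (634 bp), RPS22A with RPL39 (630 bp), RPL13B with RPS16A (720 bp), RPS15 with RPP2A (719 bp) and RPL24A with RPL30 (1156 bp). Their promoter regions did not overlap. Windows between them count for both genes, so that the same DNA gave the GCMT level of 70.9% in the strongest window of RPS16B and of RPL13A. RPL13A was at 33.8% with CCMT and 54.3% with GCMT in the promoter region, and RPS16B at 26.9% and 29.5%. RPL30, whose protein regulates the splicing of its own transcript, was at 21.5% and 27.1%, whereas RPL24A on the other side was at 11.9% and 4.95%. A part of the shared DNA of RPL13A and RPS16B (chrIV:308124-308223, plus strand of RPL13A) holds 2 Rap1 matches in opposite directions, in capitals. It was at 20.4% with CCMT over 6 cytosines and 53.7% with GCMT over 4.
RPL13A: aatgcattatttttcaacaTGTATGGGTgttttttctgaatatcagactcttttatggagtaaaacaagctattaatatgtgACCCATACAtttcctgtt
Over all ribosomal protein genes, 78 had a divergent and 59 a tandem neighbour upstream. Upstream of -250, down to -500, the medians were 22.3% against 18.7% with CCMT and 26.8% against 20.3% with GCMT, a wider gap than the 11.3% against 10.3% and 11.3% against 10.2% of the other genes. In the promoter region the difference was -2.31 points (CCMT) and 0.03 points (GCMT).

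The letters ACCCNNACA were searched on both strands from -500 to -1 as the core of the Rap1 site. They were found in 54 of the 137 ribosomal protein genes (39.4%), against 5.48% of all genes, with 62 matches at 58 different places. The matches lay at a median of -318.5 (quartiles -393 and -267), 47 of them in the direction of the gene, and 8 genes had at least 2. The letters of the other factors were near or below the background. GACGCA, for Fhl1, was found in 21 genes (15.3%, against 10.9%). AAAATTTT, for Sfp1, was found in 17 (12.4%, against 12.4%), and TTACCCG, for Reb1, in 7 (5.11%, against 10.1%). The Abf1 consensus was found in 13 (9.49%, against 18.1%). A run of at least 8 A or 8 T was found in 69 (50.4%, against 44.2%). Rap1 binds variants of this core as well, so a gene with no match is not a gene without Rap1.

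Of the 12 highest genes 6 had a Rap1 match from -500 to -1, and of the 8 lowest none had, against 39.4% of all 137. Both counts are small, and the strongest window of each of the 8 lowest, 7 of them with splice letters, lay beyond -500, outside the stretch searched. Among all ribosomal protein genes, the median promoter level with and without a match was 29.3% against 28.8% with CCMT and 31.8% against 29.4% with GCMT. Between -500 and -250 it was 22.1% against 19.1% with CCMT and 24.3% against 22.4% with GCMT. In 50 bases around the match, RPL22B (chrVI:65148-65197, minus strand), RPS13 (chrIV:579208-579257, plus strand) and the pair RPL35A (chrIV:117352-117401, plus strand) and RPL35B (chrIV:217296-217345, plus strand) show how the core, in capitals, varies at its 2 free letters.
RPL22B: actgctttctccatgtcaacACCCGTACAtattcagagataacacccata
RPS13: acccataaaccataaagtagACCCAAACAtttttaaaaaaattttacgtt
RPL35A: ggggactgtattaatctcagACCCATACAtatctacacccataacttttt
RPL35B: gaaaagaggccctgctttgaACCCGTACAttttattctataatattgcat

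Around the matches in ribosomal protein genes, the methylation level was highest at 16 to 60 bp from the centre, at 30.9% with CCMT and 35.1% with GCMT. It fell to 18.03% and 20.7% beyond 150 bp, up to 300 bp. Around the 228 matches upstream of the other genes only, the levels at 16 to 60 bp were 18.8% and 22.2%. With CCMT the level dropped to 17.1% within 4 bp of the centre, over 116 cytosines, all of them inside the match. With GCMT no target cytosine lay there, and 5 to 15 bp away the level was 33.6% over 60 cytosines. The same letters were also compared outside the matches. The first C of ACCC in a match had a mean of 12.5% (58 cytosines), against 17.6% at the 219 other ACCC of the same upstream regions, and the second C 21.7% against 25.1%. Upstream of the other genes, the first C was at 12.6% in a match and 13.1% elsewhere, and the second C at 19.2% and 18.4%.

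**Figure D5:**
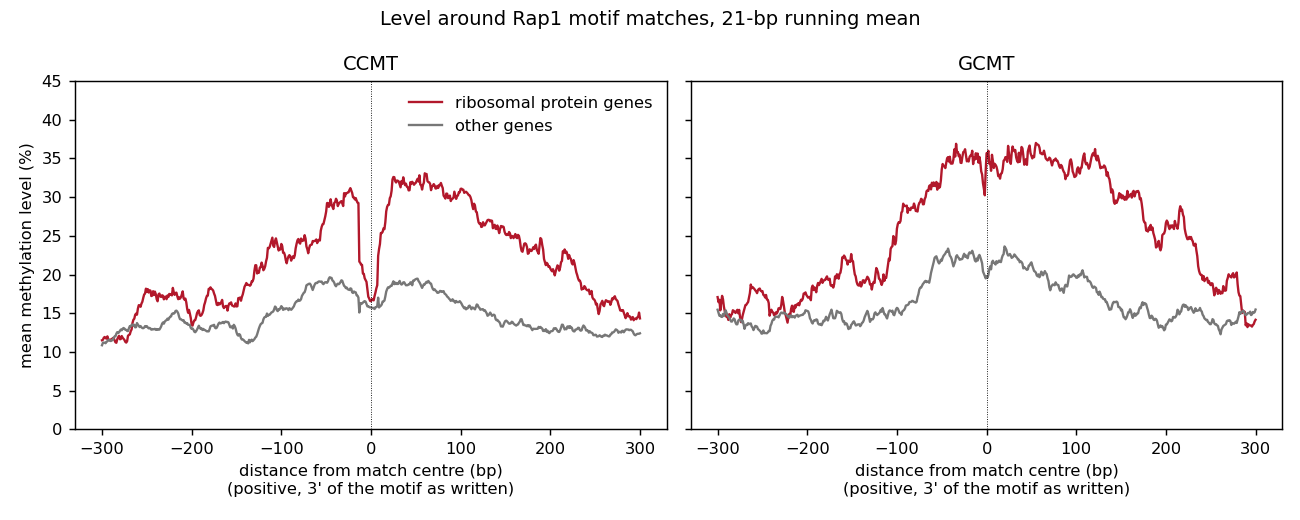
Mean methylation level (%) by distance from the centre of Rap1 matches (bp), as a 21-bp running mean, with 58 places upstream of ribosomal protein genes in red and 228 upstream of other genes in grey. The red curve stays above the grey one within 200 bp of the centre with each enzyme and meets it in places farther away, and with CCMT it dips at the match, where the level was 17.1% within 4 bp and 30.9% at 16 to 60 bp.

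The libraries ranked the ribosomal protein genes alike to a limited degree. For promoter levels, Pearson's r between the enzymes was 0.64 and Spearman's rho 0.43 over 132 genes, against 0.63 and 0.66 over 5411 other genes. For the levels between -500 and -250, r was 0.76 and rho 0.78 over 136 genes, against 0.81 and 0.71 over 5738 other genes. The points are genes of the same libraries and no replicates, and the low genes with splice letters lie at the end of both axes. A list of 14 regulators of these genes, RAP1, FHL1, IFH1, SFP1, HMO1, CRF1, ABF1, TBF1, SCH9, TOR1, TOR2, SPT7, ESA1 and STB3, had median promoter levels of 20.6% (CCMT) and 20.1% (GCMT). In this list, 7 of the 14 had at least 2 times the body level in both, near the 44.6% of all genes. HMO1 was at 31.9% and 43.4%, RAP1 at 24.9% and 33.9%, and FHL1 at 8.35% and 7.91%. The regulators ranged from 4.77% (SFP1) to 36.7% (ESA1) with CCMT.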

How the data were processed

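For the tPBAT libraries, the authors used BMap (sacCer3) and pipelines of their own, whose versions and read filters are not given in the sources used here. They deposited, per cytosine, the read count (coverage, not normalized) and the methylation level as a fraction from 0 to 1. The product of the deposited count and fraction lay within 0.0024 of a whole number at every cytosine, so methylated reads were recovered. Cytosines with under 5 reads are outside every value. Every listed cytosine stood in CC (CCMT) or GC (GCMT) of R64. The summed reads were 28485123 for CCMT and 10967078 for GCMT, so GCMT levels are less precise. Formaldehyde and detergent are given at one concentration in the labels and at another in the methods, and a supplementary list gives the CCMT library under another sample than the one analysed.

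The gene set and the lists were chosen with earlier results of these data known. Levels were averaged per region over at least 3 cytosines. Medians have exact order-statistic intervals over genes, and pooled reads have exact binomial (Clopper-Pearson) 95% intervals, which cover counting error only, since PCR copies cannot be told apart. With 1 library per enzyme no test was run. Calls were folds of 2, levels in the top 10%, and pairs at least 10 points apart. Profiles were smoothed over 21 bp. Named were the 12 highest and 8 lowest promoters by ranks in both libraries, the 6 most different and 3 most alike pairs (all with at least 5 cytosines), the stalk and ubiquitin fusion genes, genes with promoter below body in both, and those with shared upstream DNA. Other genes named as exceptions or examples, and the pairs named for -500 to -251, were chosen after their values were seen. Some genes that this rule names are not reported here, and they remain in the counts, medians and ranges. Alternatives were a coverage minimum of 10, no GCC cytosines, pooled reads, CCMT reads thinned to the mean GCMT coverage, at least 10 cytosines per region, no repeated sequence, other folds, regions, open levels and smoothing, the body cut at the stop codon, and no members with splice letters. The scripts were tested on simulated libraries. The computations used numpy 2.4.6 and pandas 2.3.3 under Python 3.11.15, with matplotlib 3.10.9 for figures and scipy 1.17.1 for intervals.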

Additional observations from a re-analysis of the deposited data

How the results depend on the processing

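No paired analysis was possible because each enzyme has 1 library. Over 16 alternatives, 26 values were recomputed 178 times in all, 169 times within their tolerance (the half-width of the interval over genes, 1.5 times for a count, 21 bp for a position). None turned round beyond its tolerance. Over genes with no other coding sequence upstream, a choice added after the data were seen for this region, the difference between -500 and -250 was 7.06 points with CCMT instead of 10.4, with the other genes at a median of 15.3% instead of 10.7%. The other values that moved were counts of genes, pairs or windows. With at least 10 cytosines per region, 33 genes instead of 52 were in the top 10% with CCMT. With the same minimum, 16 pairs instead of 29 had the same sign in both libraries, and 2 pairs instead of 6 were at least 10 points apart. This minimum leaves out genes with few cytosines. The shares of the genes and pairs still measured were not computed, so the cause of the lower counts was not tested. With an open level of 15%, the mean number of open windows was 6.72 with CCMT and 6.66 with GCMT, and with one of 30% it was 2.85 and 3.66. Without GCC cytosines it was 4.91 with GCMT, and the cause was not tested. The small difference between large and small subunit promoters changed sign within its tolerance, as in the alternative without the 12 genes with splice letters, chosen after their levels had been seen, where it was -1.27 points with GCMT. At a mean coverage of 13.1 reads, a GCMT level of few cytosines rests on few reads (109 for the 8 GC cytosines of RPS20), and differences of a few points between single genes were not detectable.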
